A study of Mus musculus with 45 samples.

Results

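The libraries described here compare the colonic epithelium of formerly obese mice with that of control mice, 5 weeks after the return to a low-fat diet. They are the 5 formerly obese and the 5 control libraries of the RNA sequencing experiment, 10 of 45 samples in the series, and were chosen by their sample labels alone. All mice were male C57BL/6 and 6 weeks old when the diets began. Control mice ate a low-fat diet (10% of energy from fat) for 20 weeks. Formerly obese mice ate a high-fat diet (60%) for 15 weeks and then the low-fat diet for 5 weeks. The 5 obese libraries, from mice on the high-fat diet for all 20 weeks, are given only beside these, since they share the control libraries. One library was made per mouse, from epithelium released with EDTA from the entire colon. Levels per cell and the shares of proximal colon, distal colon or single cell types in a library therefore cannot be told apart.

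The colonic epithelium renews itself from stem cells at the base of the crypts. Daughter cells divide, move upwards and mature into absorptive colonocytes, which take up salt, water and short-chain fatty acids at the surface, or into mucus-making goblet cells, hormone-making enteroendocrine cells and chemosensory tuft cells. Where along the gut an epithelium lies is recorded in its Hox genes, and what the lumen brings (fat, bile acids, vitamins, microbes) is met by transporters, detoxifying enzymes and secreted antimicrobial proteins.

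The 10 libraries held 15.2 to 22.8 M counts. Formerly obese libraries were larger (18.5 ± 2.52 against 15.8 ± 0.569 M, SD, n = 5, exact permutation p = 0.0159, two-sided). Their excess of 2.66 M counts was 1.59 M without formerly obese replicate 3. Thinning every library to the smallest total gave 474 calls against 482, and 435 of the 482 were kept. Epcam, which marks epithelium, was at 1975 to 2219 CPM (counts scaled to a common library total) in control mice and 2009 to 2178 CPM in formerly obese mice. Of the other cell types' defining markers, Myh11, Acta2, Adipoq, Cd79a and Pdgfra stayed under 1 CPM in all 10 libraries, while Ptprc of leukocytes reached 23.9 CPM. Further markers of fibroblasts and endothelium passed 1 CPM. Dcn was at 0.616 to 4.86 CPM in control mice and 3.20 to 9.30 CPM in formerly obese mice. Col3a1 reached 12.4 CPM in formerly obese replicate 3, and Pecam1 reached 8.74 CPM in formerly obese replicate 1. Rn45s, the precursor of ribosomal RNA, which a poly(A) library should largely lack, took 3050.4, 3396, 2552, 3175 and 3958 CPM in control mice and 2630.5, 2273, 1868, 2031 and 1811 CPM in formerly obese mice (log2 fold change -0.60, SE 0.13, adjusted p = 0.0287 by edgeR). It was lower in formerly obese mice, with obese mice at log2 0.08 against control, and its part in the other results was not tested.

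Calls required a fold change over 1.2, a p-value under 0.01 and an adjusted p under 0.25. Of 12961 genes tested, 482 were called (3.72%), 240 of them higher (1.85%) and 242 lower (1.87%) in formerly obese mice. The median size of a called change was 0.41 on the log2 scale. An adjusted p under 0.05 was reached by 282 genes (2.18%), and an unadjusted p under 0.05 by 2169. In the obese contrast, which used the same control libraries, 205 genes were called (1.58%), 93 higher (0.718%) and 112 lower (0.864%). The ranges of the control and the formerly obese libraries lay apart in 469 genes (3.62%). The calls were described by 74 lists of pathways, families and cell types, whose tested members included 136 of the called genes. In each list the share called can be read against the 3.72% over all genes, and the median change against -0.00065. Of the 482 calls, 227 were kept in each of 10 fits that left out 1 library. Where a gene below lost its call in some of these fits, the value is given for a library whose omission left the smallest change. The count was 660 without control replicate 4 and 362 without control replicate 2. Values of single genes below are given in the order of the replicates, 1 to 5.

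**Figure D1:**
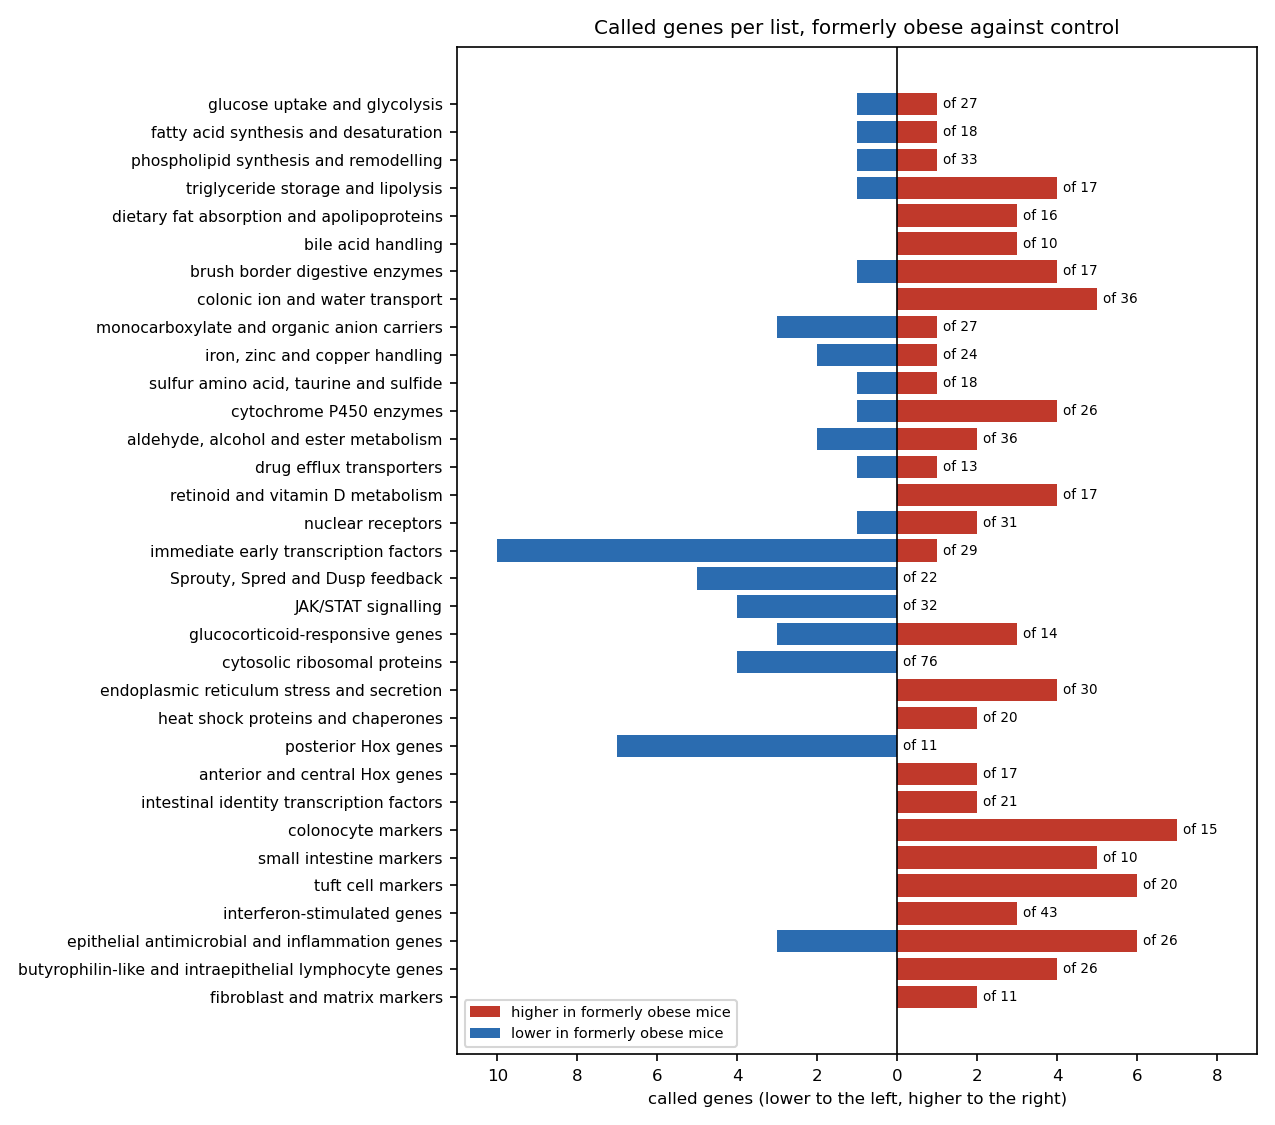
Called genes per list in formerly obese against control mice, with bars to the right for higher and to the left for lower genes and the number of tested genes beside each bar. Lists with at least 2 called genes and at least 5 tested genes are shown, and the colonocyte, small intestine and tuft cell lists hold higher genes only, while posterior Hox genes and Sprouty, Spred and Dusp genes hold lower genes only.

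Genes of mature absorptive cells were higher in formerly obese mice. Of 15 tested colonocyte markers, 7 rose and 0 fell (median log2 0.31, obese 0.10), and of 10 tested markers of the small intestine, which the colon also carries at lower levels, 5 rose and 0 fell (median log2 0.50, obese 0.24). The latter 5 were Sis, Alpi, Fabp2, Apob and Rbp2, while Lct, Fabp1, Apoa1, Apoa4 and Slc2a2, defining genes of the small intestine, stayed at or under 1 CPM in all 10 libraries. Slc26a3 (mm10, chromosome 12, 31438219 to 31473919), the chloride-bicarbonate exchanger of the surface colonocyte, stood at 818, 1311, 1104, 1270.4 and 960.3 CPM in control mice and 1386, 1354, 1379.5, 1361 and 1764 CPM in formerly obese mice (log2 fold change 0.41, SE 0.12, adjusted p = 0.0818 by edgeR). Every formerly obese library lay above every control library, and replicate 5 was the highest. Car4 (mm10, chromosome 11, 84957754 to 84966054), a membrane-bound carbonic anhydrase of the same cells, stood at 544, 653, 559, 675 and 477 CPM in control mice and 698, 746, 700.3, 759.9 and 787 CPM in formerly obese mice (log2 fold change 0.34, SE 0.10, adjusted p = 0.0762 by edgeR), again with no overlap. Obese mice were at log2 -0.22 for Slc26a3 and -0.03 for Car4, and neither was called. Krt20, a keratin of cells that have finished differentiation, was at 669, 652, 857, 1212 and 695 CPM in control mice and 1140.0, 913, 1368, 1235 and 1325 CPM in formerly obese mice (log2 fold change 0.55, SE 0.16, adjusted p = 0.0806 by edgeR). Its groups overlapped through control replicate 4, which stood at the formerly obese level. Ceacam20, an adhesion molecule of the brush border, rose with no overlap (log2 0.34, adjusted p = 0.0245 by edgeR), and Cyp2c55 (log2 0.46), Tmigd1 (log2 0.74) and Saa1 (log2 0.31) were the other 3 called colonocyte markers. Car1, a cytosolic carbonic anhydrase of the colonocyte whose values are given although it was not called, was at 2054 to 7387 CPM in control mice and 4742 to 9702 CPM in formerly obese mice (log2 0.80, adjusted p = 0.160 by edgeR). The call of Slc26a3 was lost on leaving out control replicate 5 (log2 0.36) or formerly obese replicate 5 (log2 0.33), that of Krt20 on leaving out control replicate 1 (log2 0.48) and that of Cyp2c55 on leaving out control replicate 1 (log2 0.40) or control replicate 2 (log2 0.40) or formerly obese replicate 1 (log2 0.30). Tmigd1 lost its call in 7 of 10 fits (log2 0.58 without control replicate 2), and Saa1 in 5 of 10 fits (log2 0.25 without formerly obese replicate 1).

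Digestive enzymes of the brush border were mostly higher where they were called. Of 17 tested, 4 rose and 1 fell (median log2 0.26, obese 0.09). Sis (mm10, chromosome 3, 72888560 to 72966866), the sucrase-isomaltase of the small intestine, was at 41.5, 22.7, 41.1, 18.6 and 24.6 CPM in control mice and 39.1, 55.8, 35.5, 46.6 and 66.3 CPM in formerly obese mice (log2 fold change 0.71, SE 0.20, adjusted p = 0.0818 by edgeR). Alpi, the intestinal alkaline phosphatase, was at 20.6, 23.1, 30.1, 47.9 and 28.0 CPM in control mice and 63.1, 31.7, 48.6, 44.8 and 43.4 CPM in formerly obese mice (log2 0.63, adjusted p = 0.122 by edgeR). Both overlapped with control mice, and obese mice were at log2 0.39 for Sis, not called, and at 0.65 and called for Alpi. Mep1a, a subunit of the protease meprin, was abundant and tightly grouped. It lay at 581, 597, 611, 631 and 585 CPM in control mice and 768, 761, 706, 740.1 and 674 CPM in formerly obese mice (log2 0.28, SE 0.05, adjusted p = 0.0209 by edgeR), without overlap. Mep1b, of the same protease, rose by a similar amount with a wider error (log2 0.28, SE 0.09, adjusted p = 0.117 by edgeR). Ace, the angiotensin-converting enzyme, fell (log2 -0.37). The call of Sis was lost on leaving out formerly obese replicate 5 (log2 0.57), and that of Mep1a on leaving out formerly obese replicate 1 (log2 0.26). Alpi lost its call in 7 of 10 fits (log2 0.50 without formerly obese replicate 1), Mep1b in 4 of 10 fits (log2 0.22 without control replicate 1), and Ace in 5 of 10 fits (log2 -0.31 without control replicate 2) as well as with the GC trend of the libraries removed.

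**Figure D2:**
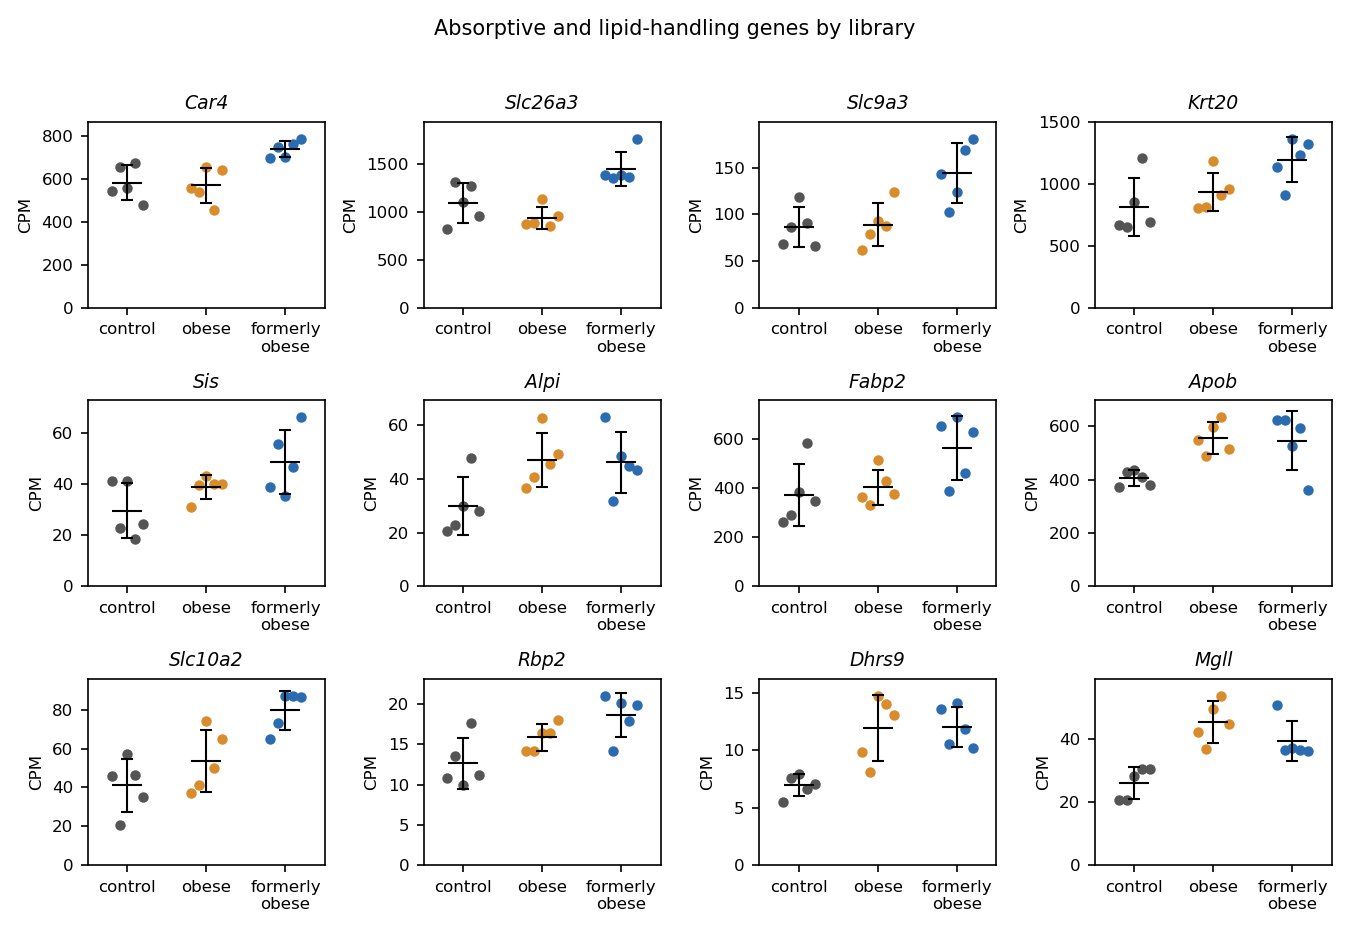
Levels in CPM (linear axes from 0) of 12 absorptive and lipid-handling genes in 5 control, 5 obese and 5 formerly obese libraries, with 1 point per library and black marks for the mean and SD. Formerly obese points lie above all control points for Car4, Slc26a3, Slc10a2, Dhrs9 and Mgll, and overlap with them for the other 7 genes.

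Salt uptake in the colon runs through paired exchangers of the apical membrane. Of 36 tested genes of ion and water transport, 5 were called higher and 0 lower (median log2 0.08). Kcnn4, a potassium channel gene, was lower but just missed the fold cutoff (log2 -0.26, adjusted p = 0.0260 by edgeR). That was the smallest adjusted p of the list, in which 2 genes were under 0.05. Beside Slc26a3 and Car4 the called genes were Slc9a3 (mm10, chromosome 13, 74121515 to 74166064), the apical sodium-hydrogen exchanger, Car12, a second membrane carbonic anhydrase, and Sgk1, a kinase that acts on sodium transport. Slc9a3 stood at 68.8, 86.6, 119, 90.9 and 66.5 CPM in control mice and 143, 103, 124, 169 and 181 CPM in formerly obese mice (log2 fold change 0.74, SE 0.18, adjusted p = 0.0453 by edgeR), or 1.67 times the control level, and only control replicate 3 reached into the formerly obese range. It was at log2 0.04 in obese mice. Car12 (log2 0.43) lost its call in 5 of 10 fits (log2 0.32 without formerly obese replicate 3), and Sgk1 (log2 0.40, obese 0.60 and called) in 7 of 10 fits (log2 0.34 without control replicate 3).

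Genes of bile acid handling were higher where they were called. Of 10 tested, 3 rose, 0 fell and 9 had a positive sign (median log2 0.25, obese 0.16). Slc10a2 (mm10, chromosome 8, 5085623 to 5105232), the apical sodium-dependent bile acid carrier, showed the largest rise of the list, with 45.8, 20.8, 57.2, 46.4 and 35.2 CPM in control mice and 65.1, 73.4, 86.9, 87.2 and 86.3 CPM in formerly obese mice (log2 fold change 0.96, SE 0.21, adjusted p = 0.0289 by edgeR). All 5 formerly obese libraries were above all control libraries, and the mean was 1.94 times higher, beside log2 0.38 in obese mice. Slc51b, a subunit of the basolateral exporter, rose by log2 0.34, and Nr1h4, the bile acid receptor FXR, by log2 0.27 with groups that lay apart. Slc51b lost its call in 7 of 10 fits (log2 0.27 without control replicate 2) and in the fit of the 10 libraries alone. Nr1h4, close to the fold cutoff, lost its call in 6 of 10 fits (log2 0.25 without formerly obese replicate 1), and under 4 other settings, among them upper-quartile scaling and removal of the GC trend (log2 0.26).

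Lipid handling differed at single steps. Of 17 tested genes of triglyceride storage and lipolysis, 4 rose and 1 fell (median log2 0.08). Mgll, which splits monoglycerides, was at 20.6, 20.6, 28.2, 30.3 and 30.3 CPM in control mice and 50.7, 36.4, 37.1, 36.4 and 36.2 CPM in formerly obese mice (log2 fold change 0.60, SE 0.13, adjusted p = 0.0276 by edgeR). No control library reached the formerly obese range, replicate 1 stood above the other formerly obese libraries, and obese mice were at log2 0.80 and called. Dgat2, of the last step of triglyceride synthesis, rose (log2 0.37, obese 0.53 and called), as did Lpin2, a phosphatidate phosphatase (log2 0.40), and Cidec, a lipid droplet protein (log2 0.93). Gpam, which adds the first acyl chain to glycerol phosphate, fell without overlap, at 52.0 to 64.3 CPM in control mice and 40.6 to 49.2 CPM in formerly obese mice (log2 -0.33, adjusted p = 0.0276 by edgeR, obese -0.35 and called). Of 16 tested genes of fat absorption, 3 rose and 0 fell. Apob, the backbone of chylomicrons, was at 373, 431, 437, 412 and 381 CPM in control mice and 624, 625, 527, 595 and 363 CPM in formerly obese mice (log2 fold change 0.43, SE 0.12, adjusted p = 0.0653 by edgeR), with 4 formerly obese libraries above the control range and replicate 5 below it. Obese mice were at log2 0.45 and called. The fatty acid carrier Slc27a4 (log2 0.32) and the intestinal fatty acid binding protein Fabp2 (log2 0.60) also rose. The call of Fabp2 was lost in 7 of 10 fits (log2 0.49 without control replicate 1) and by DESeq2, that of Lpin2 in 5 of 10 fits (log2 0.32 without control replicate 2) and that of Cidec on leaving out control replicate 2 (log2 0.84) or formerly obese replicate 1 (log2 0.70).

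Retinoids control growth and maturation of epithelium. Of 17 tested genes of retinoid and vitamin D metabolism, 4 rose and 0 fell (median log2 0.15, which was 0.05 without formerly obese replicate 5 and 0.24 without control replicate 5). Dhrs9, a short-chain retinol dehydrogenase, was at 5.48, 7.60, 7.94, 6.59 and 7.08 CPM in control mice and 13.6, 10.5, 14.1, 11.8 and 10.2 CPM in formerly obese mice (log2 fold change 0.80, SE 0.16, adjusted p = 0.0233 by edgeR). The groups lay apart, and obese mice were at log2 0.79 and called. Rbp2, which binds retinol inside the absorptive cell, was at 10.8, 13.6, 9.98, 17.7 and 11.1 CPM in control mice and 21.0, 14.2, 20.1, 17.9 and 19.9 CPM in formerly obese mice (log2 0.56, adjusted p = 0.0441 by edgeR), and its groups overlapped through control replicate 4 and formerly obese replicate 2. Lrat, which stores retinol as esters, rose by log2 0.44 and Rdh9, another retinol dehydrogenase, by log2 0.53. Rdh9 lost its call in 7 of 10 fits (log2 0.41 without formerly obese replicate 5).

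Detoxifying enzymes split in direction. Of 26 tested cytochrome P450 genes, 4 rose and 1 fell (median log2 0.0041). Cyp2c65 rose, at 153 to 278 CPM in control mice and 269 to 353 CPM in formerly obese mice (log2 0.57, adjusted p = 0.0318 by edgeR), beside Cyp2c55, Cyp4b1 (log2 0.49) and Cyp4f14 (log2 0.31), and Cyp2f2 fell without overlap (log2 -0.57, adjusted p = 0.0333 by edgeR, obese -0.58 and called). Of the glucuronosyl-, sulfo- and glutathione transferases, 1 of 35 tested rose, namely Ugt1a6a, at 26.5, 26.4, 32.2, 46.2 and 38.1 CPM in control mice and 61.3, 34.8, 53.5, 50.2 and 60.4 CPM in formerly obese mice (log2 0.62, adjusted p = 0.0642 by edgeR, obese -0.13). Ugt1a6a shares its later exons with the other Ugt1a genes, so that its counts may include theirs. The carboxylesterase gene Ces2e rose (log2 0.43), while Ephx1, the microsomal epoxide hydrolase, fell without overlap (log2 -0.44, adjusted p = 0.0221 by edgeR, obese -0.52 and called), and the alcohol dehydrogenase gene Adh1 fell with overlap (log2 -0.39, obese -0.37). The efflux pump Abcg2 rose (log2 0.38) and Abcc4 fell (log2 -0.29, obese -0.31 and called). Abcg2 lost its call in 6 of 10 fits (log2 0.31 without control replicate 1) and with the GC trend removed, Cyp4b1 in 7 of 10 fits (log2 0.34 without control replicate 2) and under 5 other settings, Cyp4f14 in 6 of 10 fits (log2 0.25 without control replicate 1), Adh1 in 4 of 10 fits (log2 -0.30 without control replicate 2) and Abcc4 on leaving out formerly obese replicate 1 (log2 -0.25).

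Hox genes, which record position along the body axis, differed in direction between posterior and anterior genes. Of 11 tested posterior Hox genes (paralog groups 9 to 13), 7 fell and 0 rose, 10 had a negative sign and the median log2 fold change was -0.36 (obese -0.12). Of 17 anterior and central ones, 2 rose and 0 fell (median log2 0.17, or 0.07 without formerly obese replicate 2, obese 0.11). Hoxb13 (mm10, chromosome 11, 96194361 to 96196599), the most abundant of the fallen genes and a marker of distal colon, was at 339, 399.7, 319, 349 and 359 CPM in control mice and 268, 299, 231, 308 and 269.5 CPM in formerly obese mice (log2 fold change -0.36, SE 0.08, adjusted p = 0.0303 by edgeR). Hoxd13 (mm10, chromosome 2, 74668310 to 74671599) was at 76.4, 79.6, 68.1, 62.3 and 69.2 CPM in control mice and 50.3, 58.1, 41.6, 58.6 and 39.0 CPM in formerly obese mice (log2 fold change -0.52, SE 0.12, adjusted p = 0.0356 by edgeR). Neither overlapped between groups, and in obese mice Hoxb13 was at log2 -0.14 and Hoxd13 at -0.30. Hoxa10 (log2 -0.31), Hoxa13 (log2 -0.31), Hoxd9 (log2 -0.89), Hoxd10 (log2 -0.51) and Hoxd11 (log2 -0.45) fell as well, with Hoxd9 between 0.452 and 1.24 CPM. Within cluster b the sign turned between Hoxb9 and Hoxb13. Each tested gene from Hoxb2 to Hoxb9 had a positive log2 fold change, from 0.09 for Hoxb9 to 1.02 for Hoxb2, and Hoxb3 and Hoxb8 passed the test. Hoxb8 was at 19.4, 13.3, 22.1, 17.3 and 19.6 CPM in control mice and 29.9, 19.1, 23.3, 23.95 and 25.4 CPM in formerly obese mice (log2 0.41, adjusted p = 0.126 by edgeR) and Hoxb3 at 22.7, 10.3, 19.1, 12.7 and 16.4 CPM in control mice and 24.4, 21.5, 21.1, 23.6 and 23.4 CPM in formerly obese mice (log2 0.49, adjusted p = 0.119 by edgeR), both with some overlap. In cluster a, by contrast, each tested gene from Hoxa2 to Hoxa13 had a negative sign. Hoxb13, Hoxd9 and Hoxd13 kept their call whichever library was left out. Hoxa10 lost it on leaving out control replicate 2 (log2 -0.23), Hoxa13 in 4 of 10 fits (log2 -0.23 without control replicate 2), Hoxd10 in 7 of 10 fits (log2 -0.40 without formerly obese replicate 5), Hoxd11 in 7 of 10 fits (log2 -0.36 without formerly obese replicate 5), Hoxb8 in 7 of 10 fits (log2 0.31 without control replicate 2) and Hoxb3 in 6 of 10 fits (log2 0.36 without control replicate 2). Hoxd9 was not called by DESeq2.

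**Figure D3:**
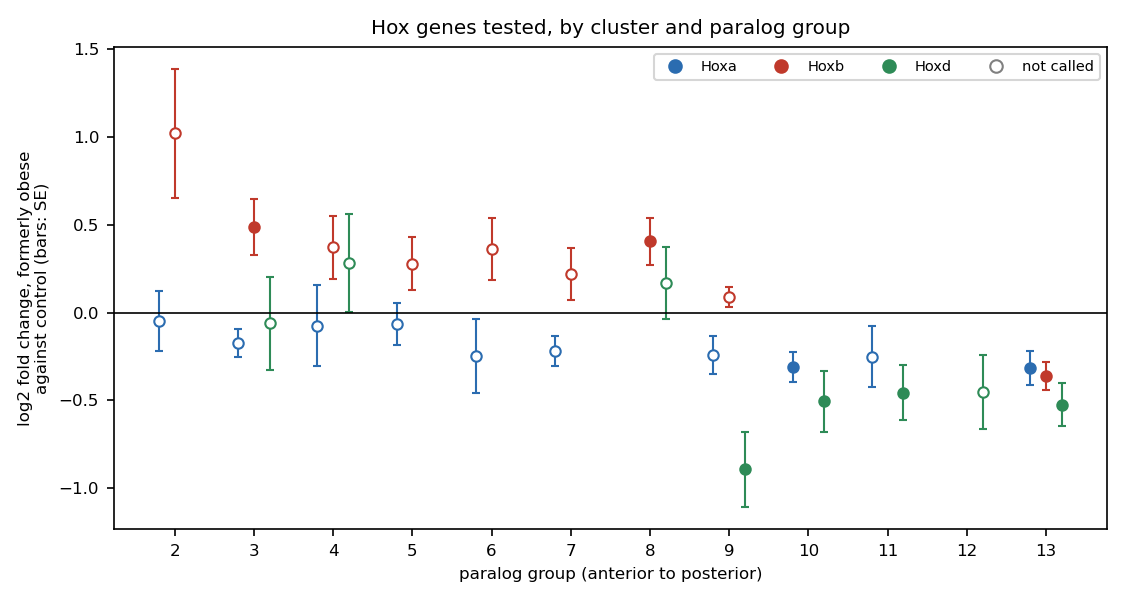
Log2 fold change with SE of tested Hox genes of paralog groups 2 to 13 in formerly obese against control mice (5 libraries each) by paralog group, coloured by cluster, with filled points for called genes. Genes of groups 10 to 13 lie below 0 in all 3 clusters, while Hoxb2 to Hoxb9 lie above 0.

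Lower genes were frequent among immediate early genes, many of them transcription factors, that cells switch on within minutes of a growth or stress signal. Of 29 tested, 10 fell and 1 rose (median log2 -0.20, obese 0.05), which is 37.9% called. The windows from 250 bases before to 50 after the start site were read for those lower genes that had one, and for Dusp1, in the RefSeq annotation of GRCm38.p6, and 9 of 11 genes were found. The windows of 4 genes are printed, because these are the ones with a CRE or a TATA box, with every cyclic AMP response element (CRE, TGACGTCA) and TATA box (TATAAA) in capitals, on either strand.
Fos (chr12:85473640-85473939, plus strand): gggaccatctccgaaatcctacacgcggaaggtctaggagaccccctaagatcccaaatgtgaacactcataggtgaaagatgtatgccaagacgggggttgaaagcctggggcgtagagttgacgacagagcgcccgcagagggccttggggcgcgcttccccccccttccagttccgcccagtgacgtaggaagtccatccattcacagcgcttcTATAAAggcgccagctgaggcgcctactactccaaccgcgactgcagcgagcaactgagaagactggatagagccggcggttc
Junb (chr8:84978699-84978998, minus strand): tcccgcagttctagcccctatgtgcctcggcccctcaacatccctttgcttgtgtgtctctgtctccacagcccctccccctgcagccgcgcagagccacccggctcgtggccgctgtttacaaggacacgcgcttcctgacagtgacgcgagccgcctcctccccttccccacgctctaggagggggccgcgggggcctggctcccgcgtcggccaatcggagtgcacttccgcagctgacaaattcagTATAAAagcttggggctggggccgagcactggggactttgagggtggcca
Btg2 (chr1:134079106-134079405, minus strand): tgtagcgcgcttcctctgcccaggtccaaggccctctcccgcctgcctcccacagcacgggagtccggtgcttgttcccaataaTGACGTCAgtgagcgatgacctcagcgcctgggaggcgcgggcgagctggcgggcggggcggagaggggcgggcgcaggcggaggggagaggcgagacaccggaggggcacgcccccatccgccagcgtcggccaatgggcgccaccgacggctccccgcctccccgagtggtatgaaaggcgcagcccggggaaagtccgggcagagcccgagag
Dusp1 (chr17:26508423-26508722, minus strand): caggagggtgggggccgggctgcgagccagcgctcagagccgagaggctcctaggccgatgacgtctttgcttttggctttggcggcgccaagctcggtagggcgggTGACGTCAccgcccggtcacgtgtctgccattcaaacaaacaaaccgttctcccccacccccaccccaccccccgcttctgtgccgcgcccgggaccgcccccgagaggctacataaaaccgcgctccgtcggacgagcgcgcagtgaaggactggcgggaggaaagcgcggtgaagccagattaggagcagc
A CRE was found in 2 of the 9 windows, those of Btg2 and Dusp1, and in 1.79% of all 32851 windows of this length. A TATA box was found in 2 of 9, those of Fos and Junb, and in 13.6% of all windows. The CArG box of serum response factor was in 0 of the 9 windows and in 1.63% of all. Sites further than 250 bases before the start, and variants of the CRE letters, were not searched, so the genes may hold such sites. The TATA letters of Fos lay 33 bases before the start site and those of Junb at the annotated start site itself, and the CRE lay 166 bases before it in Btg2 and 143 bases before it in Dusp1. These motifs do not overlap one another in the printed windows.

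Nr4a1 (mm10, chromosome 15, 101266846 to 101274794), an orphan nuclear receptor, had the largest fold change of the list, with 29.0, 17.3, 19.3, 14.8 and 21.2 CPM in control mice and 5.36, 12.7, 10.8, 9.98 and 11.4 CPM in formerly obese mice (log2 fold change -1.01, SE 0.19, adjusted p = 0.0233 by edgeR). Its level was 0.495 times that of control mice, and the lowest control library lay above the highest formerly obese one. Fosb, a partner of Jun proteins in AP-1, was at 138, 105, 114, 72.3 and 150.2 CPM in control mice and 45.6, 95.6, 56.2, 67.0 and 42.7 CPM in formerly obese mice (log2 fold change -0.92, SE 0.20, adjusted p = 0.0276 by edgeR), and Fos itself was at 540.1, 399.8, 460.3, 410.4 and 466 CPM in control mice and 310.3, 410.4, 377, 326 and 368 CPM in formerly obese mice (log2 fold change -0.35, SE 0.11, adjusted p = 0.114 by edgeR). Fosb overlapped only through control replicate 4 and formerly obese replicate 2, and Fos through 2 control libraries and formerly obese replicate 2. Junb (log2 -0.47) and Jund (log2 -0.43), the Jun partners, fell with them, as did Ier2, at 125, 116, 106, 109.8 and 143 CPM in control mice and 96.6, 89.7, 89.5, 85.8 and 81.8 CPM in formerly obese mice (log2 fold change -0.43, SE 0.08, adjusted p = 0.0233 by edgeR), where the groups lay apart. Atf3 (log2 -0.57), Btg2 (log2 -0.34), Klf2 (log2 -0.78) and Cyr61 (log2 -0.73) complete the 10. The gene that rose was Sgk1. In obese mice the same genes lay between log2 -0.57 for Klf2 and 0.13 for Jund, and none of the 10 was called. Fos lost its call in 5 of 10 fits (log2 -0.28 without control replicate 1), Atf3 on leaving out control replicate 1 (log2 -0.46) or formerly obese replicate 1 (log2 -0.49) or formerly obese replicate 5 (log2 -0.51), Btg2 on leaving out control replicate 1 (log2 -0.29) or control replicate 5 (log2 -0.31) or formerly obese replicate 1 (log2 -0.31) and Klf2 on leaving out control replicate 5 (log2 -0.54) or formerly obese replicate 5 (log2 -0.71). The other 6 kept theirs.

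**Figure D4:**
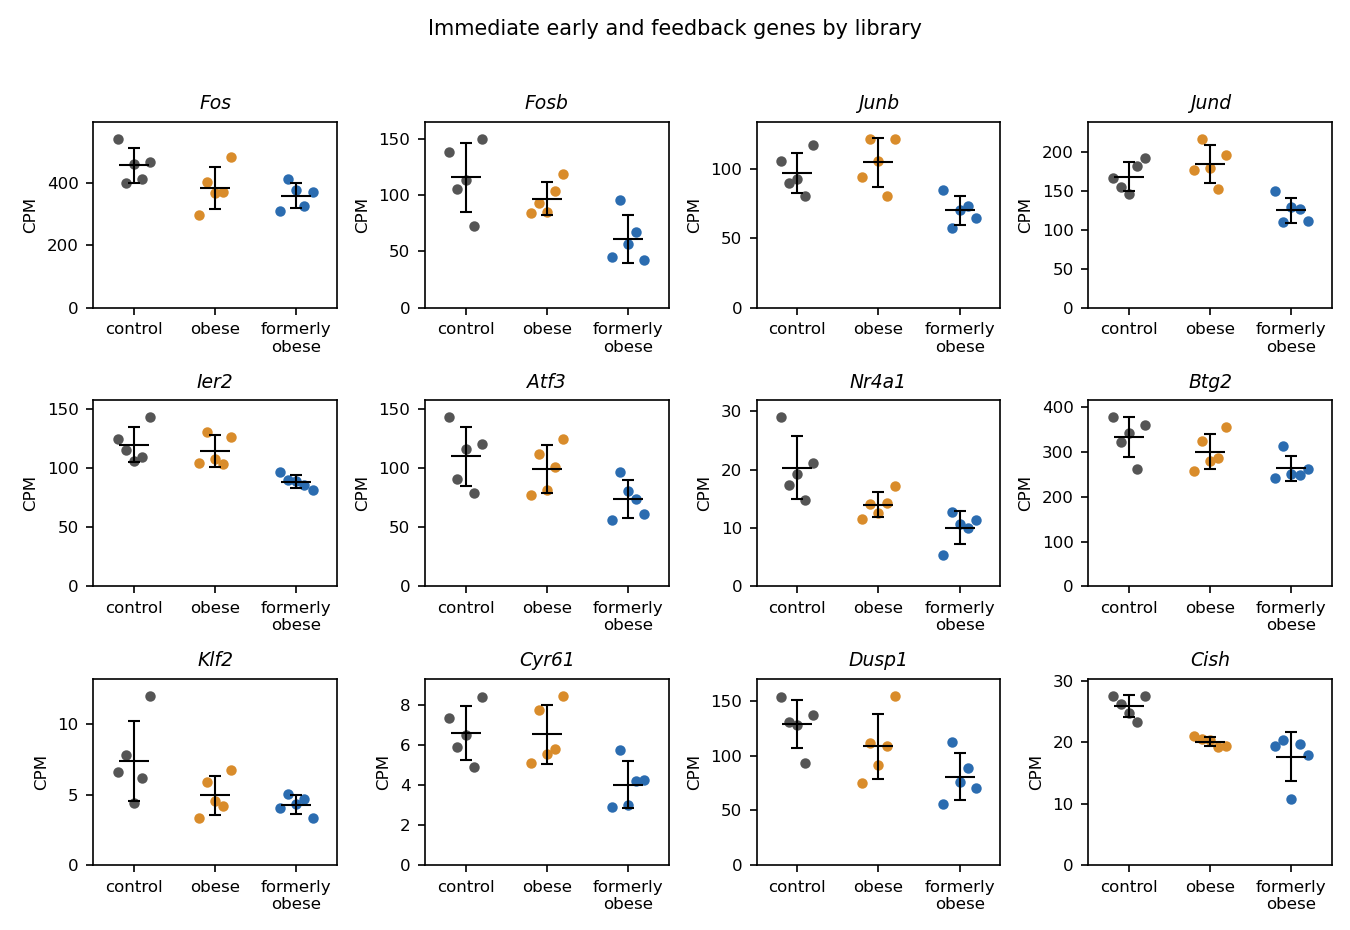
CPM (linear axes from 0) of 10 called immediate early genes, of Dusp1 and of Cish in 5 control, 5 obese and 5 formerly obese libraries, with 1 point per library and black marks for the mean and SD. The formerly obese mean is the lowest of the 3 groups in each panel, and formerly obese points lie below all control points for Nr4a1, Ier2 and Cish.

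Sprouty, Spred and Dusp feedback genes and JAK/STAT genes were lower where they were called. Of 22 tested Sprouty, Spred and Dusp genes, 5 fell and 0 rose (median log2 -0.03, which was -0.10 without formerly obese replicate 5). Dusp1 (mm10, chromosome 17, 26505591 to 26508472), a phosphatase of stress-activated kinases, was at 154, 131, 128, 93.8 and 138 CPM in control mice and 55.7, 113, 76.4, 89.0 and 70.8 CPM in formerly obese mice (log2 fold change -0.67, SE 0.19, adjusted p = 0.0682 by edgeR). Only control replicate 4 and formerly obese replicate 2 crossed the gap between the groups. Spry1 (log2 -0.40, obese -0.35 and called) and Spry2 (log2 -0.30, obese -0.20), inhibitors of receptor tyrosine kinase signals, and the phosphatase genes Dusp5 (log2 -0.60) and Dusp7 (log2 -0.39) also fell. Of 32 tested JAK/STAT genes, 4 fell and 0 rose, while 19 had a positive and 13 a negative sign (median log2 0.01). Cish, a feedback inhibitor of cytokine receptors, was at 27.6, 26.3, 24.9, 23.4 and 27.5 CPM in control mice and 19.4, 20.4, 10.7, 19.8 and 17.98 CPM in formerly obese mice (log2 fold change -0.56, SE 0.12, adjusted p = 0.0276 by edgeR), with no overlap and formerly obese replicate 3 lowest. The receptor genes Ghr (log2 -0.39) and Lifr (log2 -0.43, obese -0.85 and called) and the kinase gene Pim3 (log2 -0.27) were the other 3. Areg, an EGF receptor ligand, fell as well (log2 -0.40), as did the Notch ligand Dll1 (log2 -0.36). In the list of EGF receptors and ligands 1 of 12 tested genes was called (median log2 0.02). In that of the Notch pathway and secretory fate 1 of 25 was called (median log2 -0.0048). Spry2 lost its call on leaving out control replicate 1 (log2 -0.26) or control replicate 2 (log2 -0.26), Dusp5 in 6 of 10 fits (log2 -0.45 without control replicate 1), Dusp7 in 7 of 10 fits (log2 -0.34 without control replicate 4), Lifr in 4 of 10 fits (log2 -0.36 without formerly obese replicate 4), Pim3 in 7 of 10 fits (log2 -0.22 without control replicate 1), Areg in 4 of 10 fits (log2 -0.30 without control replicate 4) and Dll1 in 6 of 10 fits (log2 -0.31 without control replicate 5). Dusp5, Dusp7 and Pim3 were not called with the GC trend removed (log2 -0.55, -0.34 and -0.18).

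Glucocorticoid-responsive genes moved in both directions. Of 14 tested, 3 rose and 3 fell (median log2 -0.03). Fkbp5, a co-chaperone of the steroid receptor, was at 182, 164, 189.8, 187 and 147 CPM in control mice and 221, 246, 230.1, 288 and 203 CPM in formerly obese mice (log2 fold change 0.45, SE 0.11, adjusted p = 0.0350 by edgeR), with the groups apart. Tsc22d3, a glucocorticoid-induced leucine zipper gene, rose (log2 0.29), beside Sgk1, while Dusp1, Cebpd (log2 -0.67, adjusted p = 0.0380 by edgeR) and Cyp11a1 fell. Cyp11a1, which opens steroid synthesis, was at 3.49, 3.08, 2.67, 0.616 and 0.643 CPM in control mice and 0.350, 0.877, 0.267, 0.603 and 0.170 CPM in formerly obese mice (log2 -2.23, adjusted p = 0.0704 by edgeR), a level near the limit of these libraries and with overlap. Ccrn4l, the rhythmic gene nocturnin, rose without overlap and was the only one called of 22 tested clock genes. Tsc22d3 lost its call in 5 of 10 fits (log2 0.23 without control replicate 1).

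Several chaperones rose. Of 30 tested genes of endoplasmic reticulum stress and of secretion, 4 rose, 0 fell and 25 had a positive sign (median log2 0.11, obese 0.08). Hspa5, the chaperone BiP, was at 471, 363, 516, 513 and 408 CPM in control mice and 479, 748, 582, 712 and 482 CPM in formerly obese mice (log2 0.40, adjusted p = 0.0912 by edgeR). Formerly obese replicates 2 and 4 were highest and the other 3 stood within or just above the control range. Hyou1 (log2 0.36), Creld2 (log2 0.29) and Manf (log2 0.29) were also called. In the separate list of heat shock proteins and chaperones, 2 of 20 tested rose and 0 fell. There 14 had a positive and 6 a negative sign (median log2 0.07, obese 0.09). In the cytosol, Hsph1, a heat shock protein, was at 37.9, 35.6, 38.1, 39.8 and 45.6 CPM in control mice and 70.0, 82.4, 55.3, 88.3 and 41.2 CPM in formerly obese mice (log2 fold change 0.77, SE 0.17, adjusted p = 0.0268 by edgeR, obese 0.54 and called), where replicates 2 and 4 were again highest, and the co-chaperone gene Chordc1 rose without overlap (log2 0.37, obese 0.27 and called). The calls of Hspa5, Hyou1, Creld2 and Manf each depended on single libraries. Hspa5 lost its call in 4 of 10 fits (log2 0.31 without formerly obese replicate 2), Hyou1 in 4 of 10 fits (log2 0.29 without formerly obese replicate 4), Creld2 on leaving out control replicate 5 (log2 0.26) or formerly obese replicate 2 (log2 0.26) or formerly obese replicate 4 (log2 0.24) and Manf in 4 of 10 fits (log2 0.24 without formerly obese replicate 2).

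Tuft cells are rare, and their marker genes lay at low levels. All 20 tested markers had a positive sign, 6 rose and the median was log2 0.36 (obese 0.09), while Cd24a, which many other cells also express, held most of the list's summed level. Sh2d7, an adaptor gene of tuft cells, was at 7.66, 6.09, 7.87, 5.97 and 5.92 CPM in control mice and 9.38, 11.1, 9.61, 8.71 and 9.44 CPM in formerly obese mice (log2 fold change 0.52, SE 0.11, adjusted p = 0.0260 by edgeR) and its groups did not overlap. Trpm5, the cation channel of taste signalling, was at 17.5, 12.9, 18.1, 11.9 and 11.96 CPM in control mice and 16.7, 23.2, 17.9, 19.6 and 18.7 CPM in formerly obese mice (log2 0.41, adjusted p = 0.0902 by edgeR), with overlap through control replicates 1 and 3. Rgs13 (log2 0.51), Dclk1 (log2 0.32) and the Siglecf gene, listed as Siglec5 (log2 0.78), also rose. The called genes lay between 1.03 and 27.1 CPM. Trpm5 lost its call in 4 of 10 fits (log2 0.33 without formerly obese replicate 2) and Dclk1 in 5 of 10 fits (log2 0.26 without control replicate 4). Of the other secretory lineages, 1 of 21 goblet cell genes was called (Gcnt3) and 0 of 23 enteroendocrine genes (median log2 0.06 and 0.03).

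Butyrophilin-like proteins on enterocytes shape the gamma-delta T cells within the epithelium, and 3 of 4 tested Btnl genes rose. Of 26 tested genes of this family and of intraepithelial lymphocytes, 4 rose and 0 fell (median log2 0.32, obese 0.25), and the median was 0.20 without formerly obese replicate 2 and 0.15 without replicate 4. Btnl1 (mm10, chromosome 17, 34377132 to 34386028) was at 109, 106, 114, 139 and 122 CPM in control mice and 170.0, 151, 154, 152 and 145 CPM in formerly obese mice (log2 fold change 0.39, SE 0.07, adjusted p = 0.0221 by edgeR), and Btnl6 and Syk, the latter a tyrosine kinase, rose by log2 0.44 and log2 0.35. In all 3 the ranges lay apart. Btnl2, the least abundant, was at 4.61, 3.93, 7.01, 7.26 and 6.37 CPM in control mice and 12.99, 10.0, 9.43, 14.1 and 6.84 CPM in formerly obese mice (log2 fold change 0.87, SE 0.23, adjusted p = 0.0618 by edgeR), where formerly obese replicate 5 fell back into the control range. H2-T3, which encodes the thymus leukaemia antigen that lymphocytes of the gut epithelium bind, rose, at 47.7 to 70.8 CPM in control mice and 72.8 to 102 CPM in formerly obese mice (log2 0.48, adjusted p = 0.0276 by edgeR) without overlap. Of 21 tested genes of MHC class I presentation, 1 rose and 0 fell (median log2 0.17), or 4.76% called. Near-identical Btnl genes of this cluster may share reads, so that their separate values are uncertain. Each of these 5 calls held whichever library was left out.

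Host defence genes were uneven among the formerly obese mice. Of 26 tested epithelial antimicrobial and inflammation genes, 6 rose and 3 fell (median log2 0.21, or 0.12 without control replicate 3 or formerly obese replicate 5, obese 0.18). Reg3b (mm10, chromosome 6, 78370885 to 78373466), a secreted lectin that acts on bacteria, was at 101, 19.8, 132, 135 and 102 CPM in control mice and 283, 54.7, 1841, 142 and 579 CPM in formerly obese mice (log2 fold change 2.57, SE 0.83, adjusted p = 0.119 by edgeR). Replicate 3 and then replicate 5 stood far above the highest control library, and replicate 2 lay within the control range. Its partner Reg3g was at 19.1, 9.04, 29.1, 36.4 and 18.2 CPM in control mice and 61.9, 9.34, 283, 25.4 and 208 CPM in formerly obese mice (log2 fold change 2.39, SE 0.75, adjusted p = 0.107 by edgeR), with the same order of libraries. Replicate 2 was the lowest library of both genes in each of the 3 groups. Reg3a stayed near 1 CPM (log2 1.11), Duox2, which makes hydrogen peroxide at the surface, was at 52.4, 39.6, 50.04, 44.4 and 48.8 CPM in control mice and 61.0, 49.1, 75.2, 77.4 and 74.7 CPM in formerly obese mice (log2 0.52, adjusted p = 0.0684 by edgeR, obese 0.67 and called), and Nos2 rose at a low level (log2 1.08, obese 1.22 and called). The genes that fell were Wfdc2, a protease inhibitor (log2 -0.52, adjusted p = 0.0276 by edgeR), whose groups lay apart, Il1rn, the antagonist of the interleukin-1 receptor (log2 -0.43), and Il18 (log2 -0.38). The call of Reg3b was lost in 7 of 10 fits (log2 1.44 without formerly obese replicate 3), that of Reg3g in 5 of 10 fits (log2 1.76 without formerly obese replicate 3) and that of Reg3a in 5 of 10 fits (log2 0.76 without formerly obese replicate 5). Nos2 lost its call in 8 of 10 fits (log2 0.90 without formerly obese replicate 5), Il1rn in 4 of 10 fits (log2 -0.33 without control replicate 2) and Il18 in 6 of 10 fits (log2 -0.29 without formerly obese replicate 4).

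Of 43 tested interferon-stimulated genes, 3 rose, 0 fell and 35 had a positive sign (median log2 0.21, obese 0.02). That median was 0.11 without formerly obese replicate 4, 0.13 without formerly obese replicate 5 and 0.36 without control replicate 1. Irf7, the regulator of type I interferon genes, was at 63.8, 55.4, 71.0, 94.7 and 71.4 CPM in control mice and 92.5, 68.9, 101, 112 and 138 CPM in formerly obese mice (log2 0.52, adjusted p = 0.102 by edgeR), and Oas2, an antiviral enzyme gene, at 0.872, 0.393, 0.930, 0.616 and 0.643 CPM in control mice and 1.34, 1.38, 0.623, 4.001 and 3.00 CPM in formerly obese mice (log2 1.56, adjusted p = 0.0902 by edgeR). Replicates 4 and 5 were the highest formerly obese libraries of both. Oasl1 rose without overlap (log2 0.44, adjusted p = 0.0276 by edgeR). The median of 8 tested MHC class II genes was log2 1.31 (obese -0.09), or 0.56 without formerly obese replicate 4, and 0 of them passed the test. H2-Ab1, which presents antigen to helper T cells, was at 21.1, 6.55, 5.15, 15.0 and 3.28 CPM in control mice and 13.7, 16.4, 12.7, 79.3 and 30.8 CPM in formerly obese mice (log2 fold change 1.58, SE 0.56, adjusted p = 0.154 by edgeR). Replicate 4 stood far above all other libraries and replicate 5 above the control range, and the other 3 formerly obese libraries lay within it. Ptprc, the pan-leukocyte gene, was highest in formerly obese replicates 4 and 2, at 23.9 and 22.2 CPM, against 9.01 to 13.6 CPM in control mice, and its part in these values was not tested. Irf7 lost its call in 5 of 10 fits (log2 0.39 without formerly obese replicate 5) and Oas2 on leaving out control replicate 2 (log2 1.42) or formerly obese replicate 4 (log2 1.17) or formerly obese replicate 5 (log2 1.38).

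**Figure D5:**
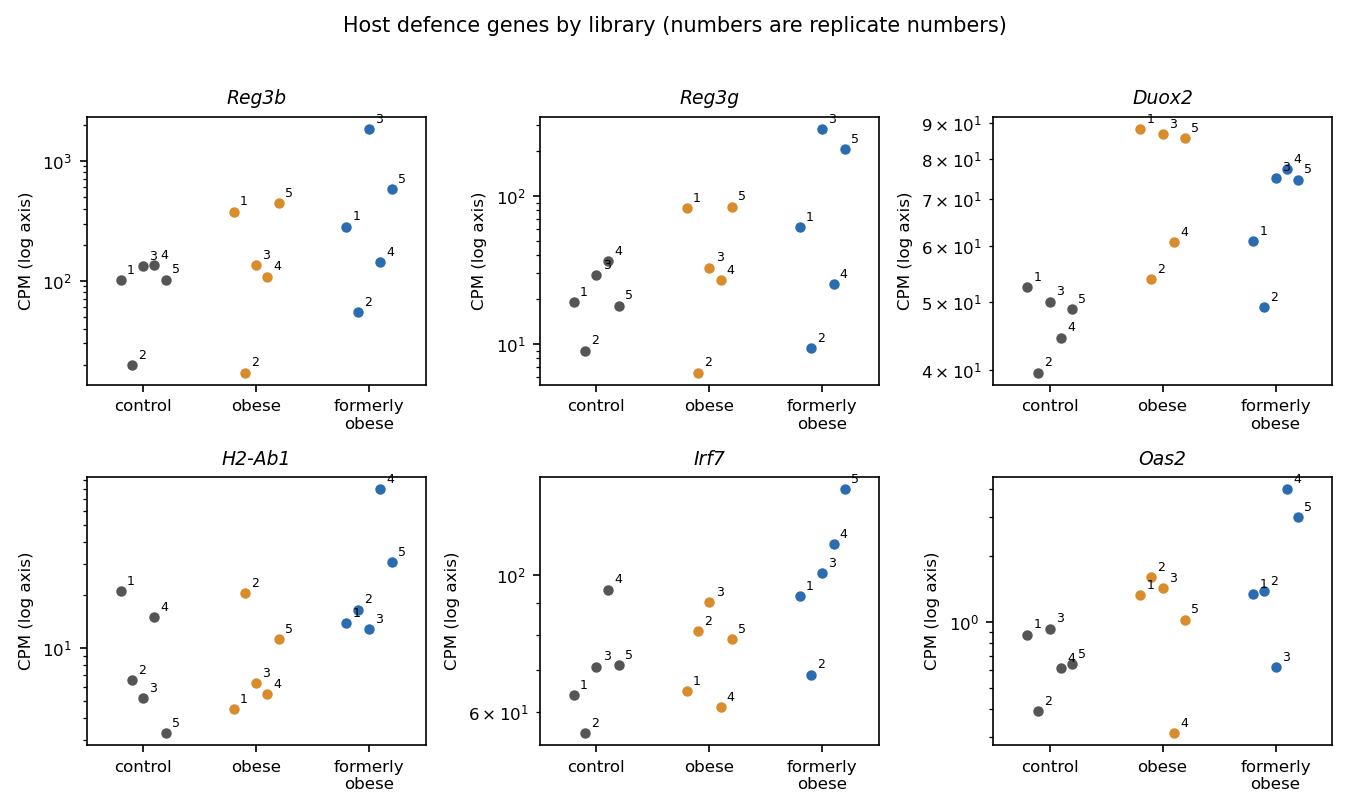
CPM on log axes of 6 host defence genes in 5 control, 5 obese and 5 formerly obese libraries, with 1 point per library and its replicate number beside it. Reg3b and Reg3g are highest in formerly obese replicates 3 and 5, H2-Ab1 and Oas2 in replicates 4 and 5, and replicate 2 has the lowest Reg3b and Reg3g of each group.

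Carriers of iron, vitamins and small acids changed one by one. Tfrc (mm10, chromosome 16, 32608896 to 32632794), the transferrin receptor, was at 335, 271, 419, 412 and 376 CPM in control mice and 464, 430.0, 699, 454 and 728 CPM in formerly obese mice (log2 fold change 0.61, SE 0.14, adjusted p = 0.0356 by edgeR). The groups lay apart, and replicates 3 and 5, the libraries with the most Reg3b, were the highest. Its ligand gene Trf fell (log2 -0.39, adjusted p = 0.0754 by edgeR, obese 0.30), as did Hfe, a regulator of iron uptake (log2 -0.30). Slc16a12, a monocarboxylate carrier family member, fell to 0.555 times the control level, with no overlap, and obese mice were at log2 0.08. Slc46a1, the proton-coupled folate carrier, was at 48.6, 55.1, 38.4, 41.2 and 39.8 CPM in control mice and 35.4, 36.6, 30.9, 36.8 and 29.3 CPM in formerly obese mice (log2 fold change -0.40, SE 0.11, adjusted p = 0.0615 by edgeR), and Slc5a6, the sodium-dependent multivitamin carrier for biotin and pantothenate, at 69.5, 77.7, 58.3, 56.0 and 57.2 CPM in control mice and 45.6, 55.6, 39.0, 50.6 and 43.0 CPM in formerly obese mice (log2 fold change -0.45, SE 0.11, adjusted p = 0.0409 by edgeR). Both lay wholly below the control range. Slc13a2, a dicarboxylate carrier, rose (log2 0.27, obese -0.11). Csad, of taurine synthesis, fell without overlap (log2 -0.29), and Suox, which oxidises sulfite, rose (log2 0.45). Hfe lost its call in 7 of 10 fits (log2 -0.24 without control replicate 2), Suox in 6 of 10 fits (log2 0.34 without formerly obese replicate 3) and Slc13a2 in 4 of 10 fits (log2 0.23 without control replicate 1).

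Few fuel genes were called. Acss2, which activates acetate, was the only one called of 12 tested genes of short-chain fatty acid use. It stood at 240.4, 272, 238, 235 and 232 CPM in control mice and 178, 199.9, 195, 189 and 217 CPM in formerly obese mice (log2 fold change -0.32, SE 0.06, adjusted p = 0.0253 by edgeR, obese -0.29 and called), without overlap. No gene was called among 24 of mitochondrial fatty acid oxidation (median log2 0.0035), 6 of ketone bodies (-0.03), 16 of gluconeogenesis and glycogen (-0.05), 36 of respiratory complex I (-0.07), 22 of complexes III and IV (-0.04) and 16 of ATP synthase (-0.06). Among synthesis genes, Elovl6, which lengthens fatty acids, rose (log2 0.29) and Fads2, which desaturates them, fell without overlap, at 367, 443, 322, 358 and 341 CPM in control mice and 250.02, 288, 286, 298 and 278 CPM in formerly obese mice (log2 fold change -0.39, SE 0.09, adjusted p = 0.0301 by edgeR). Hkdc1, a hexokinase-like gene, rose (log2 0.51, adjusted p = 0.0664 by edgeR), while Pfkm of glycolysis (log2 -0.27, obese -0.40 and called), Pdp1, which activates pyruvate dehydrogenase (log2 -0.30, obese -0.29 and called), and Bckdha, of branched-chain amino acid breakdown (log2 -0.33), fell. Of 33 tested genes of phospholipid synthesis and remodelling, 1 rose and 1 fell (median log2 0.01). Pla2g2a rose (log2 0.64, obese 0.70 and called) and Lpcat1 fell (log2 -0.31, obese -0.58 and called). Pla2g2a, also listed as a Paneth cell marker, was low, at 1.44 to 1.93 CPM in control mice and 2.16 to 3.17 CPM in formerly obese mice. The study named Acss2, Pfkm, Pdp1 and Lpcat1 for obese mice, whose comparison used the same control libraries, and Hoxb13 and Spry1 as examples in formerly obese mice, so their calls are not independent evidence. Other metabolic genes that it named for young obese mice were not called here. These were Acss1 (log2 -0.05), Slc7a9 (-0.07), Acadsb (-0.10), Acsm3 (-0.26), Slc2a4 (-0.45), Slc27a2 (0.39), Lpcat4 (0.61) and Acaa1b (0.66). Elovl6 lost its call on leaving out formerly obese replicate 3 (log2 0.25), Pfkm in 4 of 10 fits (log2 -0.22 without control replicate 2), Pdp1 in 4 of 10 fits (log2 -0.24 without formerly obese replicate 3), Pla2g2a in 6 of 10 fits (log2 0.54 without formerly obese replicate 5) and Lpcat1 in 5 of 10 fits (log2 -0.22 without formerly obese replicate 1). Removing the GC trend ended the calls of Pfkm (log2 -0.24) and Lpcat1 (log2 -0.29).

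Genes of growth and upkeep gave mostly no call. There was none among 50 cell cycle and replication genes (median log2 0.11, from 0.01 without formerly obese replicate 3 to 0.20 without replicate 2, and 41 of them with a positive sign), 24 cholesterol genes (-0.05), 79 mitochondrial ribosomal protein genes (-0.02), 41 proteasome genes (0.03), 20 tRNA synthetase genes (0.02), 25 amino acid transporter genes (-0.05), 24 sphingolipid genes (0.01), 35 tight junction and adhesion genes (0.01) and 28 DNA and histone methylation enzyme genes (0.05). Of 76 cytosolic ribosomal protein genes, 4 fell and 0 rose, 63 had a negative sign and the median was log2 -0.14 (obese -0.14). The 4 were Rplp2 (log2 -0.45), Rps10 (log2 -0.38), Rps21 (log2 -0.31, adjusted p = 0.0233 by edgeR), whose groups lay apart, and Rplp1 (log2 -0.29), which lost its call on leaving out formerly obese replicate 2 (log2 -0.25) and with the GC trend removed (log2 -0.24). Among all 76, the ranges of the groups lay apart in 13, beside 3.62% over all genes tested. An adjusted p under 0.05 was reached by 6, beside 2.18% over all genes. The summed level of the 76 was 12097 to 13515 CPM in control mice and 10961 to 11907 CPM in formerly obese mice. Ribosomal protein genes have many processed copies in the genome, with which they may share reads.

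Among the called genes outside these groups, a few stood out by family or size. Gcnt genes encode enzymes that branch the glycans of mucins and surface proteins, and of 4 tested, Gcnt2 (log2 0.60), Gcnt3 (log2 0.43) and Gcnt4 (log2 0.54, obese 0.52 and called) rose. Gcnt2 was at 13.5, 16.8, 19.5, 19.0 and 10.4 CPM in control mice and 23.7, 20.1, 23.1, 25.6 and 27.4 CPM in formerly obese mice, without overlap. By contrast, 5 of 141 Fam genes, 8 of 173 Tmem genes and 9 of 310 Zfp genes were called, which is 3.55%, 4.62% and 2.9%. Prom1, a membrane protein of the apical surface, was at 369, 339, 400.0, 408 and 359.7 CPM in control mice and 557, 459, 551, 472 and 528 CPM in formerly obese mice (log2 fold change 0.45, SE 0.08, adjusted p = 0.0143 by edgeR), and Atp2b1, a calcium pump of the plasma membrane, at 261, 272, 272, 271 and 262 CPM in control mice and 388, 391.7, 353, 365 and 364 CPM in formerly obese mice (log2 fold change 0.48, SE 0.08, adjusted p = 0.0121 by edgeR). Both rose without overlap. Bmp3, a BMP family member, rose (log2 0.48, adjusted p = 0.0233 by edgeR), as did the transcription factors Prdm1, at 1.56, 1.31, 1.92, 2.09 and 1.87 CPM in control mice and 3.55, 4.07, 2.89, 4.06 and 2.38 CPM in formerly obese mice (log2 fold change 0.95, SE 0.19, adjusted p = 0.0253 by edgeR), and Hnf4g (log2 0.27). Abca12, a lipid transporter, had one of the 6 largest rises with an adjusted p under 0.05, at 34.4, 21.4, 44.1, 55.6 and 41.4 CPM in control mice and 108, 63.1, 102, 82.9 and 60.9 CPM in formerly obese mice (log2 fold change 1.08, SE 0.22, adjusted p = 0.0260 by edgeR), and Il18r1, the interleukin-18 receptor, another, at 1.06, 0.720, 0.868, 1.29 and 1.16 CPM in control mice and 2.74, 1.94, 2.00, 1.64 and 2.32 CPM in formerly obese mice (log2 fold change 1.05, SE 0.22, adjusted p = 0.0260 by edgeR). Gpr110, an adhesion receptor, had one of the 6 largest falls, at 20.5, 19.6, 15.7, 10.2 and 14.4 CPM in control mice and 7.86, 7.52, 7.30, 6.63 and 5.71 CPM in formerly obese mice (log2 fold change -1.20, SE 0.23, adjusted p = 0.0233 by edgeR). None of these 3 overlapped, and obese mice were at log2 0.61, 0.52 and -0.70. Capn11 was at 3.05, 1.38, 3.16, 0 and 1.74 CPM in control mice and 0, 0, 0.0445, 0 and 0.283 CPM in formerly obese mice, which sets 4 control libraries above all formerly obese ones and control replicate 4 at 0. Hnf4g lost its call on leaving out control replicate 1 (log2 0.23) or control replicate 3 (log2 0.26) or formerly obese replicate 5 (log2 0.19), and with upper-quartile scaling or the GC trend removed (log2 0.24).

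Stromal markers stayed low. The summed level of all 15 fibroblast and matrix markers was 19.7 to 38.2 CPM in control mice and 30.2 to 65.3 CPM in formerly obese mice, highest in replicate 3, and 2 of 11 tested rose (median log2 0.97, or 0.33 without formerly obese replicate 3). Col6a1, a collagen gene, was at 0.0623, 0.196, 0.744, 0.308 and 0.386 CPM in control mice and 1.11, 0.313, 2.00, 1.64 and 1.02 CPM in formerly obese mice (log2 1.85, adjusted p = 0.0813 by edgeR), and Sparc, of the matrix, at 0.934, 0.655, 1.05, 0.185 and 0.901 CPM in control mice and 1.34, 0.877, 3.52, 1.37 and 2.38 CPM in formerly obese mice (log2 1.37, adjusted p = 0.119 by edgeR). Both stayed under 4 CPM and overlapped. For immune cells the sums were 70.3 to 87.3 against 67.2 to 99.1 CPM, for endothelium 11.1 to 18.3 against 10.2 to 16.0 CPM, and for nerve and glia 2.89 to 5.77 against 3.05 to 5.64 CPM. Cd14, at 35.3 to 45.8 CPM, held the largest part of the immune sums. Coro1a was at 3.41 to 5.92 CPM in control mice and at 8.15 and 8.28 CPM in formerly obese replicates 2 and 4. Itgam was at 6.22 to 8.56 CPM in control mice and 5.54 to 7.83 CPM in formerly obese mice. Esam, an endothelial gene near 1 CPM, was called lower (log2 -0.61). Sparc lost its call in 5 of 10 fits (log2 1.00 without formerly obese replicate 3), Col6a1 on leaving out formerly obese replicate 3 (log2 1.58) and Esam in 7 of 10 fits (log2 -0.52 without formerly obese replicate 3).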

How the data were processed

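RNA from colonic epithelium (1 library per mouse) was sequenced as paired-end stranded mRNA libraries. According to the study's methods, the authors aligned reads to mm10 with TopHat and counted them per gene with HTSeq, and the deposited table holds raw counts, with no normalization. The submitters' processing notes name TopHat2 2.0.4 and DESeq2 1.2.10. The counting strand mode and annotation release are not given in the sources used here, so overlapping and antisense genes may share counts. The bisulfite methylation files, the list of differentially methylated regions and the authors' columns of DESeq2 comparisons (fold changes and p-values) were not used.

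Groups came from the sample labels. All 15 RNA libraries (control, obese, formerly obese) were fitted together with edgeR 4.0.16 in R 4.3.3 (filterByExpr, TMM scaling, quasi-likelihood test, Benjamini-Hochberg adjustment over all genes tested). CPM are counts of tested genes scaled to a common total after TMM scaling. The call rule (fold change over 1.2, p under 0.01, adjusted p under 0.25) follows the study's methods. The script was tested on simulated data. DESeq2 1.42.0, other scalings, filters, thinning, the replicate number as a block, removal of each library's GC trend and leaving out each library were alternatives. No 2 libraries of a group were copies (chi-square per degree of freedom of at least 4.71 between replicates).

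Genes were named by rule: called members of the gene lists, the 12 smallest p-values in each direction with a mean of at least 50 counts, the 6 largest changes in each direction at adjusted p under 0.05, the member with the smallest p of a list with no call, defining markers of cell types, and families with at least 3 calls. Car1 and Rn45s fall outside this rule and were chosen after their values were seen. The members and lists were chosen with earlier results of these data known. Promoter windows (250 bases before to 50 after the start) are RefSeq sequences on GRCm38.p6, and Cyr61 and Ier2 had none. A few genes covered by the rule are not reported here.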

Additional observations from a re-analysis of the deposited data

Results flagged for a closer look

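In 286 groups of 5 libraries (each gene named above in the control and in the formerly obese mice), 18 single libraries stood apart from the other 4 of their group by Dixon's test, where chance alone gives about 1 in 20. In control mice, replicate 4 was high for Slc27a4 (183 CPM, others 126 to 142), Rdh9 (28.4 CPM, others 21.1 to 21.9) and Ces2e (486 CPM, others 310.1 to 357), and low for Hoxd11 (10.7 CPM, others 12.7 to 13.3). Control replicate 2 was high for Acss2 (272 CPM, others 232 to 240.4) and Slc16a12 (10.4 CPM, others 9.07 to 9.42) and low for H2-T3 (47.7 CPM, others 64.7 to 70.8). In formerly obese mice, replicate 1 was high for Cyp2c55 (1761 CPM, others 991 to 1198), Mgll (50.7 CPM, others 36.2 to 37.1) and Cebpd (8.505 CPM, others 6.08 to 6.498) and low for Slc16a12 (3.96 CPM, others 5.32 to 5.71). Replicate 2 was high for Btg2 (312 CPM, others 243 to 262), and replicate 3 was low for Cish (10.7 CPM, others 17.98 to 20.4). Replicate 4 was high for H2-Ab1 (79.3 CPM, others 12.7 to 30.8) and Syk (79.8 CPM, others 71.1 to 73.5). Replicate 5 was high for Slc26a3 (1764 CPM, others 1354 to 1386), Reg3a (1.75 CPM, others 0.627 to 0.932) and Capn11 (0.283 CPM, others 0 to 0.0445).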

How the results depend on the processing

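The 482 calls became 515 with DESeq2, 489 and 494 with median-of-ratios and upper-quartile scaling, 570 with no filter on low counts, 462 with at least 10 counts in every library, 436 with the 10 libraries alone, 474 after thinning to the smallest total, and 455 with the GC trend removed (256 higher, 199 lower). Of the 482, between 402 (GC trend removed) and 479 (median-of-ratios scaling) were also called under these settings. With adjusted p under 0.05 and no fold cutoff, 282 genes were called, 155 higher and 127 lower. Leaving out 1 library gave 362 to 660 calls, 170 to 323 higher and 192 to 337 lower, and the count at adjusted p under 0.05 ran from 15 (without control replicate 5) through 18 (control replicate 2) and 47 (control replicate 1) to 579 (control replicate 4), and was 67 with the 10 libraries alone. Control and formerly obese libraries share replicate numbers, but their deviations from the group means correlated at -0.18, 0.22, -0.06, -0.23 and -0.06 for numbers 1 to 5, and only number 2 matched its own best, so the numbers were not taken to pair the mice. With the replicate block 537 genes were called (276 higher, 261 lower), and 496 with the block and the GC trend removed (285 higher, 211 lower). No named gene reversed under any of these settings. Median GC content was 48.4% in higher, 53.3% in lower and 49.7% in all tested genes. Capn11, Oas2, Col6a1 and Hoxd9, which reached at most 4.001 CPM in the compared libraries, rest on few counts, and 5 mice a group limit what can be detected.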
